A study of Mus musculus with 4 samples.

Results

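The genes described here are the receptors for the colony-stimulating factors and 1 of their ligands, Csf1r, Csf1, Csf2ra, Csf2rb and Csf3r. They were taken by symbol from the 19737 genes of a single-cell RNA sequencing study of mouse microglia, by a rule that uses no measured value. All 5 were present in the matrix and all 5 had UMIs (unique molecular identifiers, 1 for each captured transcript molecule) in each of the 20 mice.

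CSF1R is a receptor tyrosine kinase on which microglia depend for survival and proliferation. It binds CSF1, made by glia, neurons and some myeloid cells, and IL-34, made mainly by neurons. CSF2RA is the ligand-binding alpha chain of the GM-CSF receptor and CSF2RB is the signalling beta chain that it shares with the IL-3 and IL-5 receptors, which act through JAK2 and STAT5. CSF3R binds G-CSF and is best known for the production and release of neutrophils. Activation of TREM2, the receptor targeted by the antibodies of this study, is known to interact with CSF1R signalling, since both use the adaptor DAP12 (the product of Tyrobp) and the kinase Syk.

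Microglia were profiled in 5 groups of 4 mice, 24 h after a single intravenous dose of 10 mg/kg. The WT;TfRmu/hu genotype had an ATV:ISO and an ATV:4D9 group. The AppSAA;TfRmu/hu genotype had these and a further group that received 4D9. 4D9 is an antibody against mouse TREM2, ATV:4D9 is the same antibody carrying a transport vehicle that binds the transferrin receptor and brings it across the blood–brain barrier, and ATV:ISO is the isotype control with that vehicle. All mice, controls included, carried the human apical domain of the transferrin receptor knocked into both copies of the mouse gene, on a C57BL/6J background. AppSAA mice carry a knocked-in App gene with Alzheimer's disease mutations, expressed from its own promoter, and develop amyloid plaques. The labels name the control antibody ATV-DNP02. It was taken to be the ATV:ISO of the study's methods, although the deposited text does not say so. WT mice given unmodified 4D9 were not among the groups, and no group received an isotype control without the vehicle. In AppSAA mice, ATV:4D9 differed from ATV:ISO in the antibody and from 4D9 in the vehicle. 4D9 differed from ATV:ISO in both, so that comparison isolates neither. The paper reports higher brain concentrations of the antibody with the vehicle than without it. It also reports that, when brain concentrations were similar, ATV:4D9 but not 4D9 significantly raised the microglial protein IBA1. The part of brain exposure in the comparisons with 4D9 was not tested. The texts give the sort as live CD11b+ cells or as CD45+ CD11b+ cells, and the tissue as cortex or as cortex with hippocampus. The annotation recorded 1 mouse as female, the WT mouse given ATV:ISO in pool 4.

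The matrix held 74758 cells, 2193 to 6126 for each mouse, with 17150296 to 102446549 UMIs for each mouse. The cells carried microglial markers throughout, and only 12 cells (0.0161%) had more marker UMIs of some other type than of 6 microglial genes. The summed level of those 6 markers was 19774 to 20599 CPM (a gene's UMIs relative to all UMIs of the mouse, on the usual scale) in WT mice given ATV:ISO, 13644 to 15007 in WT mice given ATV:4D9, 12785 to 15571 in AppSAA mice given ATV:ISO, 14349 to 14562 after 4D9 and 10751 to 11978 after ATV:4D9. Markers of some other cell types also moved with the groups. The 3 endothelial markers summed to 18.3 to 24.4 CPM in WT and 37.5 to 52.2 in AppSAA mice given ATV:ISO, and to 13.2 to 25.9 in AppSAA mice given ATV:4D9, the directions that Csf1 had in AppSAA mice. In WT mice given ATV:4D9, where Csf1 was higher, they summed to 9.49 to 12.9 CPM. Of these markers, Flt1 (18597 UMIs, up to 43.4 CPM) and Pecam1 (8661 UMIs, up to 20.9 CPM) held nearly all the counts. Cldn5 stayed at or below 0.416 CPM in every mouse. The 4 monocyte markers summed to 9.85 to 13.6 CPM in AppSAA mice given ATV:4D9 and to 3.95 to 9.08 after ATV:ISO. In the direction of the Csf1r and Csf3r falls, and without overlap between ATV:ISO and ATV:4D9 in WT mice, the 4 dendritic cell markers went from 1177 to 1452 down to 521 to 630 CPM, the 3 astrocyte markers from 135 to 164 down to 59.8 to 74.5 CPM and the 3 oligodendrocyte markers from 27.8 to 40.5 down to 14.7 to 26.6 CPM. The endothelial markers above fell likewise in WT mice. So did the 3 B cell markers (26.9 to 30.5 down to 16.6 to 25.8 CPM) and the 3 neuron markers (1.12 to 1.77 down to 0.479 to 0.856 CPM). The dendritic cell markers went from 737 to 938 down to 380 to 574 CPM in AppSAA mice. Dendritic cell, astrocyte, B cell and neuron markers were also lower, without overlap, in AppSAA than WT mice given ATV:ISO. Most counts of the dendritic cell, astrocyte, oligodendrocyte and B cell lists came from single genes, Siglech, Slc1a3, Mbp and Cd79b. Those sums therefore mainly follow these genes and are not counts of such cells. Flt3, Xcr1 and Cd209a stayed at or below 2.47 CPM and Aqp4, Gja1 and Mog at or below 0.678 CPM in every mouse. The part of these in the results was not tested. Cells also held more UMIs after ATV:4D9. The median per cell was 13479 to 17290 in WT and 13560 to 16475 in AppSAA mice, against 6859 to 8174 and 8445 to 9884 after ATV:ISO. Every group contributed 1 mouse to each of 4 pools, and a pool was a single capture library. All 543 barcodes found in more than 1 pool (1089 cells, 1.46%) were kept apart by their pool.

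Because CPM is a share of all UMIs, a level could fall in CPM while the number of UMIs per cell did not. The main comparisons of the 5 genes are therefore given on both scales. Over 11627 genes, the median log2 ratio of ATV:4D9 to ATV:ISO in WT mice was -0.16 in CPM and 0.80 in UMIs per cell, and in AppSAA mice it was -0.09 and 0.48. AppSAA against WT mice, both given ATV:ISO, had medians of -0.24 and 0.18. Changes below are log2 fold changes ± SE from edgeR's quasi-likelihood test on counts summed per mouse, with TMM scaling and Benjamini-Hochberg adjustment over 14058 genes, called at an adjusted p under 0.05. The SE is an approximation, the size of the change divided by the square root of the test's F statistic. TMM rescales the UMI total of each mouse, so these changes can differ from the log2 ratios of CPM. UMIs per cell were compared by a two-sided exact permutation test over mice, which with 4 mice against 4 cannot give a p below 0.0286 and takes no account of the pool. For the interaction this test was run over the log2 ratios within pools, 4 of each genotype, and not over mice.

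In WT mice given ATV:4D9, all 5 genes differed from ATV:ISO, 2 of them higher (Csf1, Csf2ra) and 3 lower (Csf1r, Csf2rb, Csf3r). The same comparison called 63.3% of all genes tested. AppSAA mice given ATV:ISO differed from WT mice given ATV:ISO in 3 of the 5 genes, against 28.2% of all genes. ATV:4D9 in AppSAA mice lowered 3 of the 5 genes against ATV:ISO (Csf1, Csf1r, Csf3r), against 55.1% of all genes. The same 3 were lower against unmodified 4D9, where 54.3% of all genes were called. AppSAA and WT mice, both given ATV:4D9, differed in Csf1 only, against 11.8% of all genes. With the pool as a block, 4 of the 5 genes and 31.4% of all genes were called there. These comparisons share control groups and are not independent of each other.

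**Figure D1:**
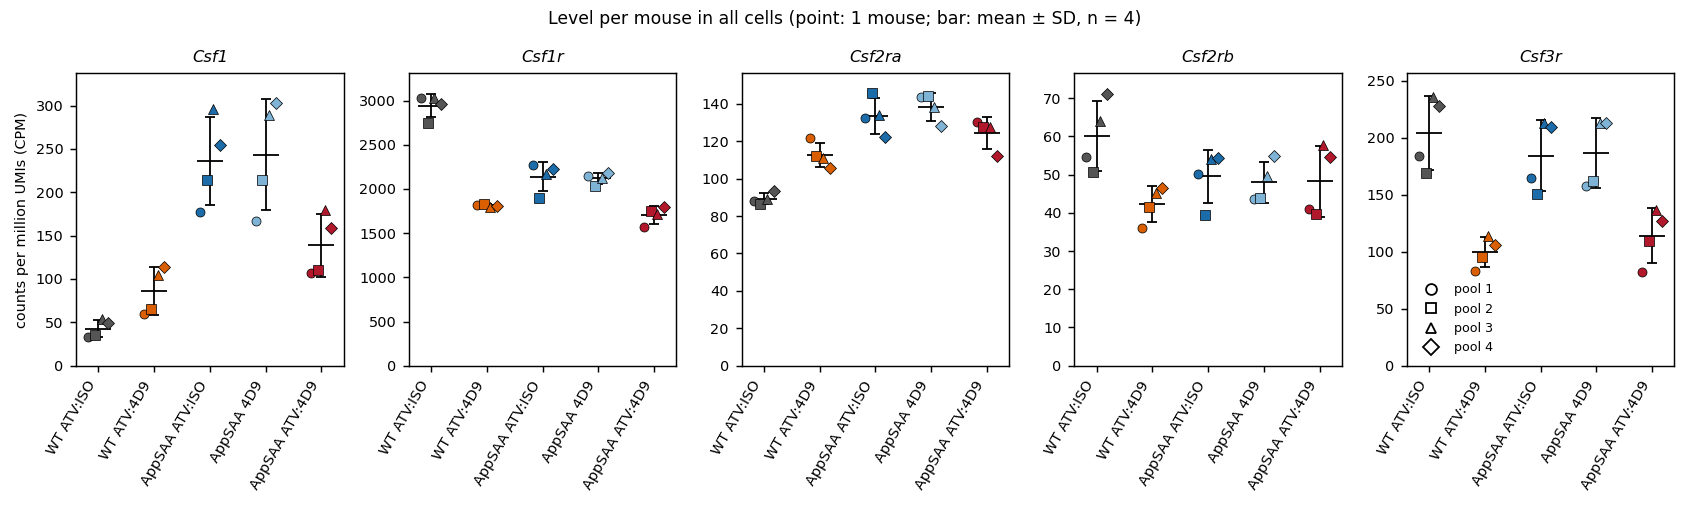
Level of each gene in all cells of a mouse (vertical axis, CPM) in the 5 groups of 4 mice, with 1 point for each mouse, the pool as the shape, and the mean ± SD as bars. Csf1 ran from 33.6 to 53.5 CPM in WT mice given ATV:ISO and from 178 to 295 in AppSAA mice given ATV:ISO, while Csf1r was highest in WT mice given ATV:ISO, at 2750 to 3032.

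Csf1, the ligand, changed most among the 5 genes in each comparison where it was called with TMM scaling over all cells. It lies on the minus strand of chromosome 3 at 107741048 to 107760469 (GRCm38, GENCODE vM21, ENSMUSG00000014599.10). Its promoter is shown because of these changes. The 300 bases below run from 250 before to 50 after the annotated start (RefSeq, GRCm38.p6, chr3:107760420-107760719, minus strand), and the capitals mark the only match, on either strand, to the kappa B letters GGACTTTCC, read here in reverse complement 154 bases before the start.
Csf1 promoter: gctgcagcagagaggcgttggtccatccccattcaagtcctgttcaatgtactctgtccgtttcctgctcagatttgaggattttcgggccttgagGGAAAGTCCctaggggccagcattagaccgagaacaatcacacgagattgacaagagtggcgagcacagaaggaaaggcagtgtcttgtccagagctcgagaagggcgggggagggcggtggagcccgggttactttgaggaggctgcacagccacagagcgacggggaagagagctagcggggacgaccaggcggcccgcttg
Of the 5 genes, 3 had a promoter in the same RefSeq table and 1, Csf1, held these letters. They occurred in 113 of 32851 promoters of this length (0.344%). A match is a description of the sequence, not a bound site.

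In pools 1 to 4, Csf1 stood at 33.6, 35.1, 53.5 and 49.1 CPM in WT mice given ATV:ISO and at 60.2, 64.9, 104 and 114 CPM in WT mice given ATV:4D9. In AppSAA mice it stood at 178, 214, 295 and 255 CPM after ATV:ISO and at 107, 110, 179 and 159 CPM after ATV:4D9. The 2 WT groups did not overlap, both lay below every AppSAA mouse given ATV:ISO, and the 2 AppSAA groups overlapped by 1 mouse each. Within every pool the order was the same, lowest in WT mice given ATV:ISO, then WT ATV:4D9, then AppSAA ATV:4D9. The group means ± SD were 42.8 ± 9.94 and 86.0 ± 27.4 CPM in WT mice and 236 ± 50.8 and 139 ± 35.9 CPM in AppSAA mice (n = 4 each).

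Csf1 was higher after ATV:4D9 in WT mice (1.12 ± 0.21, edgeR adjusted p = 0.000114) and higher in AppSAA than WT mice given ATV:ISO (2.64 ± 0.22, adjusted p = 1.84e-08). In AppSAA mice ATV:4D9 lowered it (-0.70 ± 0.21, adjusted p = 0.00758), in 4 of 4 pools. On UMIs per cell the rises remained and the fall did not pass the test. The mean ± SD was 0.373 ± 0.111 UMIs of Csf1 per cell after ATV:ISO and 1.48 ± 0.608 after ATV:4D9 in WT mice. The log2 ratio, here and below the difference of mean log2 values, was 1.94 (exact permutation p = 0.0286). For AppSAA against WT mice given ATV:ISO the log2 ratio was 2.88 (exact permutation p = 0.0286). The mean ± SD per cell was 2.75 ± 0.767 after ATV:ISO and 2.38 ± 0.683 after ATV:4D9 in AppSAA mice (log2 ratio -0.21, exact permutation p = 0.543, lower in 3 of 4 pools). After ATV:4D9, AppSAA mice had more Csf1 than WT mice with TMM scaling (0.83 ± 0.21, edgeR adjusted p = 0.0107, with log2 CPM ratios of 0.47 to 0.83 within pools). The call was kept in 7 of 8 fits that left out 1 mouse (0.69 to 0.99) and was lost without the AppSAA mouse given ATV:4D9 in pool 3 (0.69, adjusted p = 0.0549). On UMIs per cell the same difference had a log2 ratio of 0.74 (exact permutation p = 0.143), higher in 4 of 4 pools.

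Csf1r, the receptor of CSF1 and IL-34, moved against its ligand in CPM after ATV:4D9 in WT mice and between AppSAA and WT mice given ATV:ISO. In AppSAA mice both were lower after ATV:4D9. It lies on chromosome 18 at 61100598 to 61132149 (plus strand, GRCm38). WT mice given ATV:ISO had 3031, 2750, 3032 and 2959 CPM in pools 1 to 4, and WT mice given ATV:4D9 had 1821, 1833, 1793 and 1810 CPM. AppSAA mice given ATV:ISO had 2268, 1897, 2167 and 2225 CPM, and those given ATV:4D9 had 1566, 1745, 1715 and 1794 CPM. No group given ATV:4D9 overlapped with the ATV:ISO group of its genotype, and the 4 WT mice given ATV:4D9 lay close together (SD 16.9 CPM).

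Csf1r fell by 0.58 ± 0.07 on the log2 scale after ATV:4D9 in WT mice (edgeR adjusted p = 4.86e-07) and by 0.26 ± 0.07 in AppSAA mice (adjusted p = 0.0039). It was lower in AppSAA than WT mice given ATV:ISO (-0.28 ± 0.07, adjusted p = 0.00539, with log2 CPM ratios of -0.54 to -0.41 within pools). That call was lost in a fit of those 2 groups alone (-0.25, adjusted p = 0.0523). The summed microglial markers, which exclude Csf1r, were lower in the same groups, and their part in the result was not tested. Per cell, the direction turned. Csf1r had 23.7, 22.9, 26.8 and 28.0 UMIs per cell in WT mice given ATV:ISO and 28.8, 27.4, 31.5 and 34.0 after ATV:4D9, higher in 4 of 4 pools with overlapping groups (log2 ratio 0.26, exact permutation p = 0.0571). In AppSAA mice the values were 23.6, 21.5, 26.3 and 27.2 after ATV:ISO and 28.2, 26.7, 29.4 and 32.4 after ATV:4D9, again higher in 4 of 4 pools (log2 ratio 0.25, exact permutation p = 0.0571). Both ratios were below the median gene on that scale. Between AppSAA and WT mice given ATV:ISO the UMIs per cell had a log2 ratio of -0.04 (exact permutation p = 0.686). Csf1r was detected in 99.8% of all cells.

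**Figure D2:**
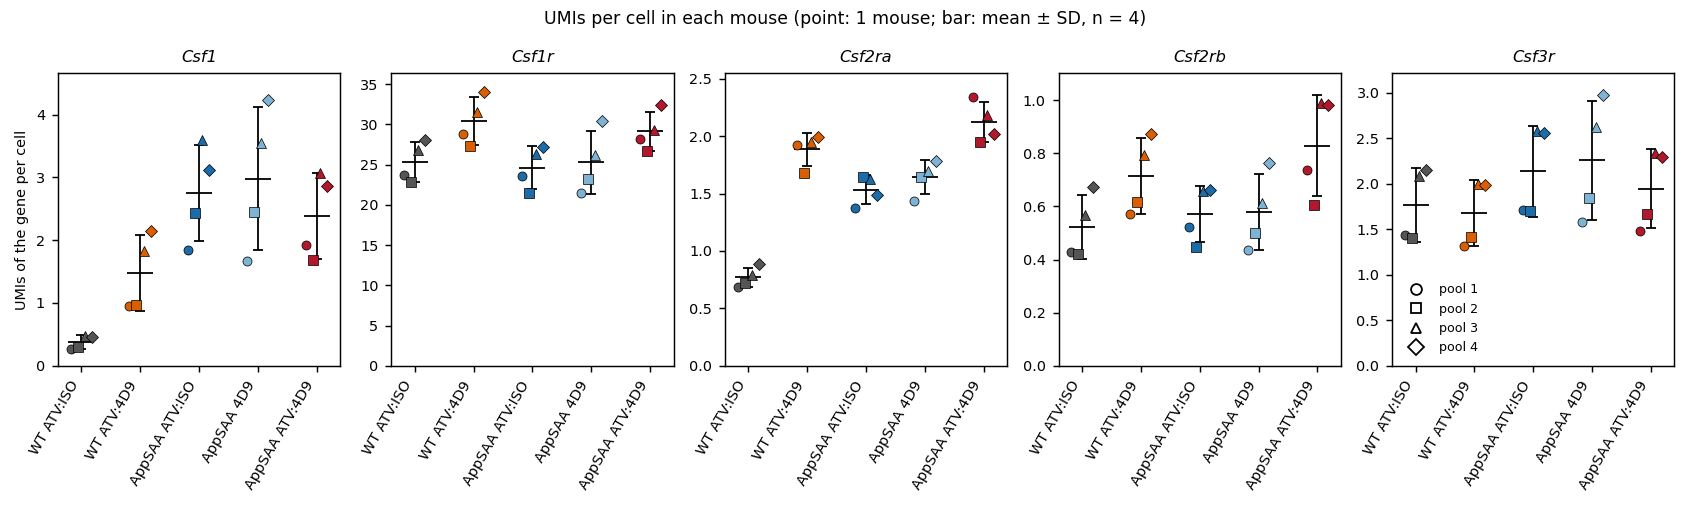
UMIs of each gene per cell (vertical axis) in the 5 groups of 4 mice, with 1 point for each mouse, the pool as the shape, and the mean ± SD as bars. Csf1r per cell was 22.9 to 28.0 in WT mice given ATV:ISO and 27.4 to 34.0 after ATV:4D9, the opposite order to the CPM values, and Csf2ra per cell was lowest in WT mice given ATV:ISO.

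Csf2ra, the GM-CSF-binding alpha chain (chromosome 19, 61223957 to 61228429, minus strand, GRCm38), was higher after ATV:4D9 in WT mice on both scales. WT mice given ATV:ISO had 88.3, 86.6, 89.3 and 93.1 CPM in pools 1 to 4, and those given ATV:4D9 had 122, 112, 111 and 106 CPM. AppSAA mice had 132, 146, 134 and 122 CPM after ATV:ISO and 130, 128, 127 and 112 CPM after ATV:4D9. The WT mice given ATV:ISO lay below all 16 other mice. The rise after ATV:4D9 in WT mice was 0.45 ± 0.10 (edgeR adjusted p = 0.000441) and AppSAA exceeded WT mice given ATV:ISO by 0.77 ± 0.10 (adjusted p = 5.56e-06).

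In AppSAA mice the Csf2ra change after ATV:4D9 was -0.03 ± 0.10 with TMM scaling (edgeR adjusted p = 0.813). Its CPM was lower in 4 of 4 pools (log2 ratios of -0.19 to -0.02). Per cell, Csf2ra rose in both genotypes. The mean ± SD went from 0.771 ± 0.0855 to 1.89 ± 0.142 UMIs per cell in WT mice (log2 ratio 1.29, exact permutation p = 0.0286) and from 1.54 ± 0.126 to 2.13 ± 0.175 in AppSAA mice (log2 ratio 0.47, exact permutation p = 0.0286), with no overlap in either genotype. Comparing AppSAA with WT mice given ATV:ISO, the log2 ratio per cell was 1.00 (exact permutation p = 0.0286). The second ratio was at the level of the median gene on this scale (0.48). Csf2ra of AppSAA against WT mice after ATV:4D9 differed by 0.28 ± 0.10 (adjusted p = 0.0641), and with the pool as a block by 0.28 (adjusted p = 0.00125). Per cell that difference was 0.17 (exact permutation p = 0.0571), higher in 4 of 4 pools, and it was not called with the block (0.18, edgeR adjusted p = 0.103).

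Csf2rb, the shared beta chain, had the lowest number of UMIs among the 5 genes, 49243 in all. It lies on chromosome 15 at 78325752 to 78353847 (plus strand, GRCm38), 20031 bases from Csf2rb2, the near-identical beta chain specific to the IL-3 receptor. Of the 50-base windows in its transcripts, 12.3% also occurred in Csf2rb2 transcripts, and 18.4% of those of Csf2rb2 occurred in Csf2rb. Over the last 1000 bases of the transcripts, the end such libraries read, the shares were 6.98% and 10.8%, so the counts of both genes are uncertain. WT mice given ATV:ISO had 54.6, 50.6, 64.0 and 71.1 CPM of Csf2rb and WT mice given ATV:4D9 had 36.0, 41.4, 45.2 and 46.5 CPM, with no overlap (-0.39 ± 0.11, edgeR adjusted p = 0.00463). Csf2rb2 fell with it by 0.48 ± 0.12 on that scale (adjusted p = 0.00221), but per cell it was higher in 4 of 4 pools, with means of 0.172 and 0.221 UMIs. Per cell Csf2rb was higher in 4 of 4 pools after ATV:4D9 in WT mice, with overlapping groups (log2 ratio 0.46, exact permutation p = 0.114). This ratio was below that of the median gene on that scale (0.80).

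AppSAA mice had 50.1, 39.5, 54.1 and 54.3 CPM of Csf2rb after ATV:ISO and 40.9, 39.7, 57.8 and 54.5 CPM after ATV:4D9. These groups overlapped widely. The difference was 0.03 ± 0.11 (edgeR adjusted p = 0.836), and AppSAA against WT mice given ATV:ISO gave -0.09 ± 0.11 (adjusted p = 0.574). Per cell, Csf2rb had 0.447 to 0.664 UMIs in AppSAA mice after ATV:ISO and 0.607 to 0.990 after ATV:4D9, higher in 4 of 4 pools with overlapping groups (log2 ratio 0.52, exact permutation p = 0.0857). This was near the ratio of the median gene on that scale (0.48). Between AppSAA and WT mice given ATV:ISO the log2 ratio per cell was 0.14 (exact permutation p = 0.571). After ATV:4D9, AppSAA against WT mice differed by 0.33 ± 0.11 (adjusted p = 0.0597), which was called with the pool as a block (0.32, adjusted p = 0.000708).

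Csf3r, the G-CSF receptor (chromosome 4, 126024550 to 126044440, plus strand, GRCm38), had the largest relative fall after ATV:4D9 among the receptors. WT mice given ATV:ISO had 183, 169, 236 and 227 CPM in pools 1 to 4 and WT mice given ATV:4D9 had 83.2, 94.9, 114 and 105 CPM. AppSAA mice had 165, 150, 212 and 210 CPM after ATV:ISO and 82.1, 109, 137 and 127 CPM after ATV:4D9. The ATV:4D9 groups did not overlap with the ATV:ISO groups. Csf3r fell by 0.92 ± 0.12 on the log2 scale in WT mice (edgeR adjusted p = 2.32e-06) and by 0.63 ± 0.12 in AppSAA mice (adjusted p = 0.00026).

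Per cell, Csf3r had a log2 ratio of -0.07 in WT mice (exact permutation p = 0.543) and of -0.13 in AppSAA mice (exact permutation p = 0.514, lower in 4 of 4 pools), while the median gene was higher. AppSAA against WT mice given ATV:ISO gave 0.04 ± 0.12 for Csf3r with TMM scaling (adjusted p = 0.859), although its CPM was lower in 4 of 4 pools (-0.17 to -0.12) and its UMIs per cell were higher in 4 of 4 (log2 ratio 0.27, exact permutation p = 0.4). After ATV:4D9, AppSAA against WT mice differed by 0.33 ± 0.12 (adjusted p = 0.094), and with the pool as a block by 0.32 (adjusted p = 0.000104).

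A paired exact test over 4 pools cannot give a p below 0.125. UMIs per cell were therefore also fitted by edgeR with the number of cells in place of the library size and the pool as a block, an alternative chosen after seeing the data. More calls were made on this scale, for all genes as for the 5. For ATV:4D9 in WT mice, 82.8% of all genes were called (78.5% higher, 4.26% lower), and Csf1r (0.26 ± 0.06, adjusted p = 0.000426), Csf1 (1.95 ± 0.11), Csf2ra (1.29 ± 0.08) and Csf2rb (0.46 ± 0.07) were higher, while Csf3r was not called (-0.07 ± 0.06, adjusted p = 0.267). In AppSAA mice 74.6% were called (67.7% higher, 6.91% lower). Csf1r (0.25 ± 0.06, adjusted p = 0.00102), Csf2ra (0.47 ± 0.08) and Csf2rb (0.53 ± 0.07) were higher there and Csf3r was lower (-0.13 ± 0.06, adjusted p = 0.0486), while Csf1 was not called (-0.20 ± 0.10, adjusted p = 0.0807). After ATV:ISO, with 44.7% of all genes called, AppSAA mice had more Csf1 (2.89 ± 0.11), Csf2ra (1.00 ± 0.08) and Csf3r (0.27 ± 0.06) than WT mice, and Csf1r (-0.04 ± 0.06) and Csf2rb (0.14 ± 0.07) were not called. After ATV:4D9, with 31% called, AppSAA mice had more Csf1 (0.74 ± 0.10), Csf2rb (0.21 ± 0.07) and Csf3r (0.21 ± 0.06) than WT mice, while Csf2ra (0.18 ± 0.08, adjusted p = 0.103) and Csf1r (-0.06 ± 0.06, adjusted p = 0.47) were not called. The effect of ATV:4D9 differed between genotypes for Csf1 (-2.15 ± 0.15) and Csf2ra (-0.82 ± 0.12), with 45.7% of all genes called.

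Csf1, Csf2rb and Csf3r were also higher in pools 3 and 4 than in pools 1 and 2 within all 5 groups, by ratios of 1.40 to 1.75, 1.18 to 1.39 and 1.23 to 1.38. Csf1r (0.986 to 1.06) and Csf2ra (0.921 to 1.04) showed no such order. The 7 neutrophil markers summed to 4.51 to 16.5 CPM in the mice of pools 1 and 2 and to 15.7 to 23.9 CPM in those of pools 3 and 4, and the median mitochondrial share of a cell was 1.01% to 1.32% against 1.41% to 2.09%. Their part in the pool difference was not tested. The 11202 cells with a neutrophil-marker UMI were 15.0% of all cells and held 18.8% of the Csf3r UMIs, 24.6% of the Csf1 UMIs and 17.5% of the Csf1r UMIs. Every group had 1 mouse in each pool, so the group comparisons above are balanced over pools.

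Unmodified 4D9 was compared with ATV:ISO in AppSAA mice, and the values of the groups overlapped for all 5 genes. Csf1 was 167, 215, 289 and 303 CPM and Csf1r was 2145, 2031, 2126 and 2179 CPM in pools 1 to 4 after 4D9. Csf3r stood at 158, 162, 213 and 213 CPM. Csf2ra had 143, 144, 138 and 128 CPM, and Csf2rb had 43.6, 43.9, 49.7 and 54.8 CPM. None of the 5 genes was called, with log2 differences of -0.03 to 0.06 and SEs of 0.07 to 0.21. No gene at all passed in this comparison with edgeR (0%), where 79 genes had an unadjusted p under 0.05. DESeq2 called 1 gene and limma-voom called 0. Against 4D9, ATV:4D9 lowered Csf1 (-0.75 ± 0.21, edgeR adjusted p = 0.00479), Csf1r (-0.26 ± 0.07, adjusted p = 0.00415) and Csf3r (-0.66 ± 0.12, adjusted p = 0.000173), and gave -0.09 for Csf2ra (adjusted p = 0.442) and 0.07 for Csf2rb (adjusted p = 0.647). Per cell, Csf2ra was higher after ATV:4D9 than after 4D9 (log2 ratio 0.37, exact permutation p = 0.0286). Csf1r per cell was higher in 4 of 4 pools (0.21, exact permutation p = 0.171), as was Csf2rb (0.52, exact permutation p = 0.143). The falls of Csf1 and Csf3r were smaller per cell and did not pass that test (-0.28, lower in 3 of 4 pools, and -0.19, lower in 4 of 4, exact permutation p = 0.486 for both). In the fit per cell with the pool as a block all 5 genes were called, beside 72.4% of all genes, with Csf1 at -0.28 (adjusted p = 0.0196) and Csf3r at -0.20 (adjusted p = 0.00548).

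The response to ATV:4D9 itself differed between the genotypes for 3 of the 5 genes, against 9.14% of all genes. The interaction (the change in AppSAA minus the change in WT mice) was -1.82 ± 0.30 for Csf1 (edgeR adjusted p = 0.000489), whose level rose in WT and fell in AppSAA mice. It was -0.48 ± 0.14 for Csf2ra (adjusted p = 0.0305) and 0.32 ± 0.10 for Csf1r (adjusted p = 0.0444), which fell less in AppSAA mice. Csf2rb had 0.42 ± 0.16 (adjusted p = 0.106) and Csf3r had 0.29 ± 0.18 (adjusted p = 0.364). With the pool as a block these were 0.41 (adjusted p = 0.00198) and 0.29 (adjusted p = 0.0061), so that all 5 genes and 30.5% of all genes were called. On UMIs per cell the interactions of Csf1 (-2.14) and Csf2ra (-0.82) each had an exact permutation p of 0.0286, and Csf1r had -0.02 (p = 0.686, exact permutation). The 2 calls gained with the block had no counterpart per cell. Csf2rb had 0.07 (exact permutation p = 0.229) and Csf3r had -0.06 (exact permutation p = 0.286), and neither was called in the fit per cell with the pool as a block (0.07, edgeR adjusted p = 0.613, and -0.06, adjusted p = 0.57). The Csf1r call was lost in 13 of 16 fits that each left out 1 mouse (0.28 to 0.37, adjusted p up to 0.109), and the Csf2ra call in 7 of 16 (-0.56 to -0.41, adjusted p up to 0.0768).

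The deposited annotation places the cells in 6 clusters, numbered 0 to 5 and without names. The clusters were made from the expression of the same cells, so differences between them are descriptions, given for mice with at least 20 cells in a cluster. Csf1 spread most. Its median over mice was 320 CPM in cluster 1, 154 in cluster 2, 151 in cluster 5, 122 in cluster 4, 77.6 in cluster 3 and 25.6 in cluster 0. In all 16 mice with enough cells it was higher in cluster 1 than in cluster 0, by 2.74 to 4.24 on the log2 scale. Clusters 2 and 5 overlapped in their ranges over mice (64.9 to 343 and 69.9 to 240 CPM), and cluster 4 (51.3 to 210 CPM) overlapped with both. Cluster 1 had the highest mean in every group (from 1 mouse in WT mice given ATV:4D9), but the order below it differed between groups. After ATV:4D9, cluster 3 had a mean of 126 CPM in AppSAA mice, above clusters 2 (123) and 4 (103), and of 83.1 CPM in WT mice, above cluster 4 (78.0). Few cells of either cluster were above the cycling threshold defined below (0.715% in cluster 1 and 0.462% in cluster 0).

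Csf1r had nearly the opposite order. Its medians over the mice of all groups were 2964 CPM in cluster 0, 2635 in cluster 3, 2003 in cluster 5, 1820 in cluster 2, 1695 in cluster 4 and 1646 in cluster 1. It was lower in clusters 1, 2, 3, 4 and 5 than in cluster 0 in every mouse compared (16, 20, 20, 16 and 17 mice). Clusters 1, 2 and 4 overlapped in range (1436 to 2500, 1452 to 2258 and 1433 to 2086 CPM), and the order below clusters 0 and 3 differed between groups. In WT mice given ATV:4D9 the lowest mean was in cluster 5 (1616 CPM), and in AppSAA mice given ATV:ISO the means of clusters 1 and 4 were 1607 and 1603 CPM. Per cell the order changed, with a median of 34.0 UMIs of Csf1r in cluster 4 and 22.2 in cluster 0. Cluster 4 also had the highest median number of UMIs of all genes (18034 per cell, against 7178 in cluster 0).

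Csf2ra followed Csf1 in having its highest median in cluster 1 (170 CPM) and its lowest in cluster 0 (96.0), with 108 to 122 CPM in the other 4 clusters. Csf3r had 200 CPM in cluster 0, 186 in cluster 3, 165 in cluster 1, 157 in cluster 5, 126 in cluster 2 and 97.5 in cluster 4. These medians are over the mice of all groups, and the order differed between groups. Mean Csf3r was higher in cluster 5 than in cluster 1 in AppSAA mice given ATV:ISO (195 and 165 CPM) and 4D9 (191 and 164 CPM), and lower in those given ATV:4D9 (127 and 166 CPM). Csf3r was lower in cluster 4 than in cluster 0 in 16 of 16 mice, by 0.70 to 1.35 on the log2 scale of CPM. Per cell this order turned, with median UMIs of Csf3r per cell of 1.99 in cluster 4 and 1.51 in cluster 0. Csf2rb had medians between 62.8 CPM in cluster 3 and 41.1 in cluster 4, the narrowest span of the 5 genes over these 6 clusters, though not over the 9 finer clusters of the annotation. Per cell, Csf2rb too was higher in cluster 4 (0.758) than in cluster 0 (0.451). The CPM ranges of Csf2rb overlapped among the clusters, apart from cluster 4 (18.0 to 45.7 CPM), which lay below cluster 0 (46.6 to 73.3 CPM) and cluster 3 (47.0 to 80.1 CPM).

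**Figure D3:**
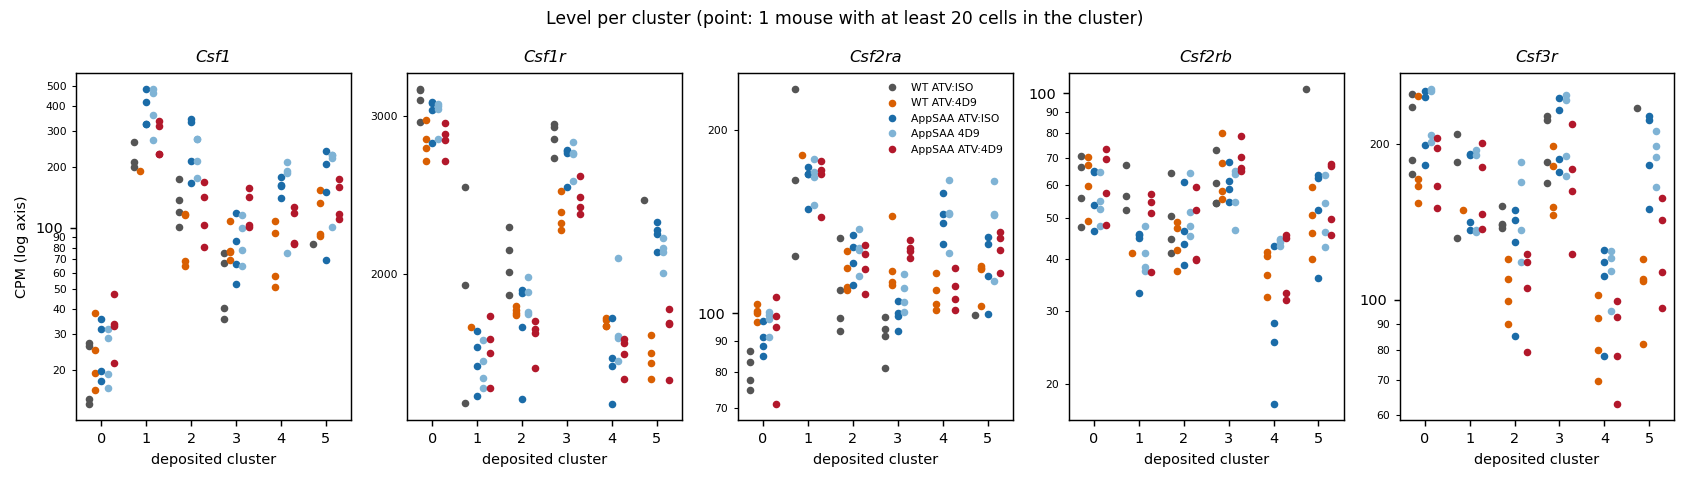
Level of each gene in each deposited cluster (horizontal axis, clusters 0 to 5; vertical axis, CPM, log scale), with 1 point for each mouse that had at least 20 cells there and the group as the colour. Csf1 was highest in cluster 1 (190 to 482 CPM) and lowest in cluster 0 (13.7 to 47.3 CPM), and Csf1r was highest in cluster 0 (2676 to 3219 CPM).

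The cells that carried Csf1 differed between groups. Cluster 1 made up 38.2% of the cells and held 83.2% of the Csf1 UMIs in AppSAA mice given ATV:ISO, and 39.4% and 84.3% after 4D9. After ATV:4D9, AppSAA mice had 13.3% of their cells and 22.7% of their Csf1 UMIs in cluster 1, while clusters 2, 4 and 5 held 32.6%, 21.1% and 21.2% of the Csf1 UMIs. WT mice given ATV:4D9 had 0.38% of their cells in cluster 1. Their Csf1 UMIs were in clusters 2 (49.7%) and 4 (39.9%), which had 47.9% and 39.5% of their cells. In WT mice given ATV:ISO, cluster 3 held 51.2% and cluster 0 held 26.1% of the Csf1 UMIs, from 35.5% and 60.6% of the cells. These shares are over all cells of a group.

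Groups were also compared within each cluster, where the make-up of the cells can still differ. Cluster 4 is the clearest case, since 83.9% of its cells in AppSAA mice given ATV:ISO and 31.9% after ATV:4D9 were in finer cluster 7, and 12.9% and 60.9% were in finer cluster 4. In cluster 2 of AppSAA mice, finer cluster 3 went from 16.6% after ATV:ISO to 0.561% after ATV:4D9. Finer cluster 1 went from 62.4% to 80.2% there. In cluster 3, finer cluster 1 went from 1.08% to 27.5% in WT and from 1.40% to 19.7% in AppSAA mice. In cluster 1 after ATV:ISO, finer cluster 8 was 20.3% in WT and 9.18% in AppSAA mice. The part of the finer clusters in the calls within clusters was not tested. Over 18 comparisons in 6 clusters, 90 tests of the 5 genes gave 9 calls, 3 higher and 6 lower. For ATV:4D9 against ATV:ISO in WT mice, 0 of 5 were called in cluster 0 (1.47% of all genes) and in cluster 2 (5.88%), and 1 in cluster 3 (6.17%). For AppSAA against WT mice given ATV:ISO, 1 of 5 was called in cluster 1 (1.21%) and 0 in clusters 0 (0.274%), 2 (0.281%) and 3 (0.189%). For ATV:4D9 against ATV:ISO in AppSAA mice, 0 of 5 were called in clusters 0 (0.667%) and 1 (1.51%), 1 each in clusters 2 (13.2%) and 3 (4.33%), 3 in cluster 4 (24.5%) and 2 in cluster 5 (29.7%). For AppSAA against WT mice given ATV:4D9, 0 of 5 were called in clusters 0 (0.154%), 2 (2.07%), 3 (0.163%), 4 (2.76%) and 5 (6.87%).

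Csf1 within cluster 1 was 225 ± 34.7 CPM in 3 WT mice and 387 ± 77.5 CPM in 4 AppSAA mice given ATV:ISO (0.82 ± 0.19, edgeR adjusted p = 0.0362). The WT value came from 120 cells, and the call was lost in 5 of 7 fits that left out 1 mouse each (0.72 to 0.92, adjusted p up to 0.15). ATV:4D9 in AppSAA mice lowered Csf1 within cluster 2 (263 ± 87.1 to 123 ± 39.0 CPM, -1.07 ± 0.22, adjusted p = 0.00201) and within cluster 4 (161 ± 16.0 to 103 ± 22.5 CPM, -0.67 ± 0.22, adjusted p = 0.0294). The second call was lost in 5 of 8 such fits (-0.80 to -0.61, adjusted p up to 0.0946). The part of the finer clusters in these 3 calls was not tested. Mean UMIs of Csf1 per cell moved the same way in all 3 of these calls, from 3.42 to 6.04, from 4.05 to 2.18 and from 3.54 to 2.15. In cluster 1 the change was -0.42 ± 0.16 (adjusted p = 0.271).

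The Csf1 difference between WT mice given ATV:4D9 and ATV:ISO over all cells, 1.12, had no call within a cluster. It was 0.17 ± 0.32 in cluster 0 (edgeR adjusted p = 0.898), -0.49 ± 0.27 in cluster 2 (adjusted p = 0.329) and 0.71 ± 0.24 in cluster 3 (adjusted p = 0.076). No test was made in clusters 1, 4 and 5, where 1 of the 2 groups had fewer than 2 mice with 20 cells (WT mice given ATV:4D9 in cluster 1, WT mice given ATV:ISO in clusters 4 and 5). With the pool as a block, Csf1 in cluster 3 was called (0.78, adjusted p = 4.4e-05).

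Csf2ra was higher after ATV:4D9 within cluster 3 in both genotypes, by 0.51 ± 0.10 in WT (edgeR adjusted p = 0.00269) and 0.47 ± 0.11 in AppSAA mice (adjusted p = 0.0083). It was lower within cluster 4 in AppSAA mice (-0.38 ± 0.12, adjusted p = 0.0218, lost in 3 of 8 fits without 1 mouse). Csf3r was lower after ATV:4D9 in AppSAA mice within cluster 4 (-0.43 ± 0.14, adjusted p = 0.0268, lost in 4 of 8) and cluster 5 (-0.53 ± 0.14, adjusted p = 0.00554). Csf1r fell by 0.26 ± 0.09 on the log2 scale within cluster 5 (adjusted p = 0.0348), a call lost in all 8 fits without 1 mouse, and its other within-cluster differences, from -0.21 to 0.17, were not called. Per cell the means of Csf1r in cluster 5 went the other way, 26.4 UMIs after ATV:ISO and 28.5 after ATV:4D9. The means per cell of the other 5 calls had the direction of the CPM. Csf2ra went from 0.896 to 1.22 and from 0.958 to 1.3 in cluster 3 and from 3.12 to 2.28 in cluster 4, and Csf3r went from 2.39 to 1.74 in cluster 4 and from 2.35 to 2.11 in cluster 5.

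Fitting the pool as a block within clusters added 16 calls and raised the share of all genes called too. For ATV:4D9 in WT mice these were Csf2ra in cluster 0 (0.35, adjusted p = 0.00607, 8.96% of all genes), Csf3r in cluster 2 (-0.43, adjusted p = 0.018, 11% of all genes), and Csf1r (-0.19, adjusted p = 0.01) and the Csf1 value above in cluster 3 (17.5%). For AppSAA against WT mice given ATV:ISO they were Csf1 (0.39) and Csf2ra (0.19) in cluster 0 (4.61%), and Csf1 in clusters 2 (1.07, 1.33%) and 3 (0.60, 1.64%). For ATV:4D9 in AppSAA mice they were Csf1 (-0.43) and Csf2rb (0.29) in cluster 1 (7.77%), and Csf1 (0.74) and Csf2rb (0.32) in cluster 3 (12.6%). For AppSAA against WT mice given ATV:4D9 they were Csf1 in clusters 2 (0.51, 7.38%), 3 (0.56, 1.7%) and 4 (0.52, 9.79%), and Csf3r in cluster 5 (0.35, 15.8%).

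Cluster 4 was the cluster highest in the 42 cell cycle genes. Its share of a mouse's cells was 0.243% to 0.435% in WT mice and 0.779% to 1.21% in AppSAA mice given ATV:ISO, 0.946% to 1.65% after 4D9, 18.4% to 25.3% in AppSAA mice given ATV:4D9 and 36.3% to 45.7% in WT mice given ATV:4D9. All 20 S genes and all 22 G2/M genes of the list were higher after ATV:4D9 than after ATV:ISO in both genotypes. Counting instead the cells above a threshold of 0.129% of UMIs in those genes, the 99th percentile of WT cells given ATV:ISO, the shares were 0.69% to 1.19%, 1.65% to 2.35%, 2.17% to 3.12%, 43.8% to 57.3% and 70.1% to 79.1%. The groups given ATV:4D9 were thus far from the other 3, and no correlation of the 5 genes with the cycling share over the 20 mice is given.

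**Figure D4:**
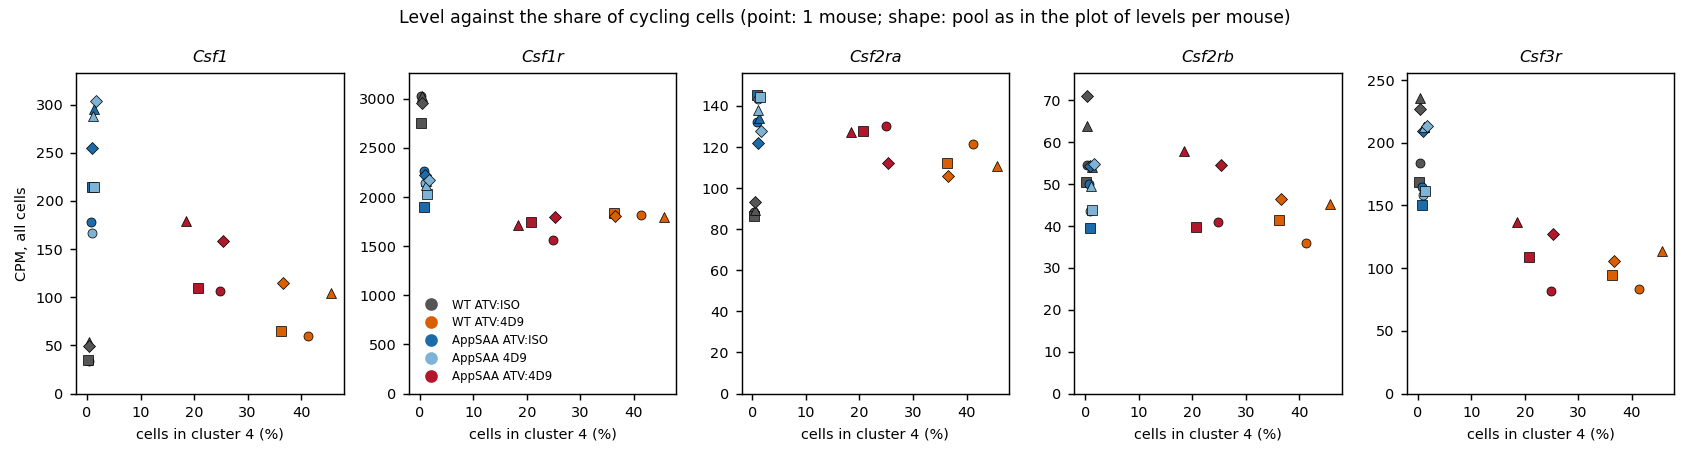
Level of each gene in all cells of a mouse (vertical axis, CPM) against the share of its cells in cluster 4 (horizontal axis, %), with 1 point for each of 20 mice. The 12 mice not given ATV:4D9 stand between 0.243% and 1.65% of cells while their Csf1 runs from 33.6 to 303 CPM, and the 8 mice given ATV:4D9 stand between 18.4% and 45.7%.

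Side by side, the 12 mice with few cycling cells covered the whole range of Csf1, from 33.6 CPM in WT mice given ATV:ISO to 303 CPM after 4D9. Among mice given ATV:4D9, the genotype with the larger cycling share, WT, had less Csf1 (60.2 to 114 CPM against 107 to 179 CPM). Csf1r was 1566 to 1833 CPM in those 8 mice and 1897 to 3032 CPM in the other 12. Csf3r was 82.1 to 137 CPM in the 8 and 150 to 236 CPM in the 12, again without overlap. Csf2ra (106 to 130 against 86.6 to 146 CPM) and Csf2rb (36.0 to 57.8 against 39.5 to 71.1 CPM) overlapped. Per cell the separation was gone. Csf1r had 26.7 to 34.0 UMIs per cell in the 8 and 21.5 to 30.4 in the 12. For Csf3r these were 1.32 to 2.34 and 1.40 to 2.98. The share of all genes that separate the 8 mice from the 12 was not computed.

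Cycling and other cells of the same mouse were then compared, in the 8 mice given ATV:4D9 and within clusters 2 and 4, at the threshold above. Of 23634 cells, 18892 were cycling and 4742 were not, and 2697 (11.4%) lay within 20% of the threshold. The cells that were not cycling were nearly all of cluster 2 (4738 of 4742), while the cycling cells were 46.5% of cluster 2 and 53.5% of cluster 4, so state and cluster were not separate in this comparison. Cycling cells held more UMIs, with a median of 17126 against 14116. Of the 5 genes, 4 were called, all lower in cycling cells with TMM scaling, in a comparison that called 63.3% of all genes. The mouse was a block in this fit.

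Csf3r differed most. Its level was 88.5 to 142 CPM in the non-cycling and 68.3 to 106 CPM in the cycling cells of the 8 mice, lower in 8 of 8 (-0.42 ± 0.02, edgeR adjusted p = 1.11e-14). Per cell it was higher in cycling cells in 1 of 8 mice, with ratios of 0.901 to 1.01. Csf2rb (-0.30 ± 0.03, adjusted p = 5.05e-09) and Csf2ra (-0.22 ± 0.03, adjusted p = 3.95e-08) were lower in 8 of 8 and 7 of 8 mice in CPM. Per cell they were higher in cycling cells in 4 of 8 and 6 of 8 mice. Csf1r was lower by 0.11 ± 0.02 (adjusted p = 5.79e-06), in 7 of 8 mice, but had 1.12 to 1.19 times as many UMIs per cell in cycling cells, higher in 8 of 8. Csf1 did not pass the test (-0.05 ± 0.04, adjusted p = 0.2), with its CPM higher in cycling cells in 4 of 8 mice and its UMIs per cell higher in 7 of 8. Within cluster 2 alone the direction of Csf1 turned, and it was higher in cycling cells (0.12, adjusted p = 0.0117). It was called lower with S genes only (-0.08, adjusted p = 0.0367) and with the 95th percentile as threshold (-0.18, adjusted p = 0.00568). Within cluster 2, the other 4 genes were still lower, by smaller differences, with -0.28 for Csf3r (adjusted p = 1.29e-10), -0.17 for both Csf2rb (adjusted p = 0.000139) and Csf2ra (adjusted p = 1.09e-05), and -0.07 for Csf1r (adjusted p = 0.00117).

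**Figure D5:**
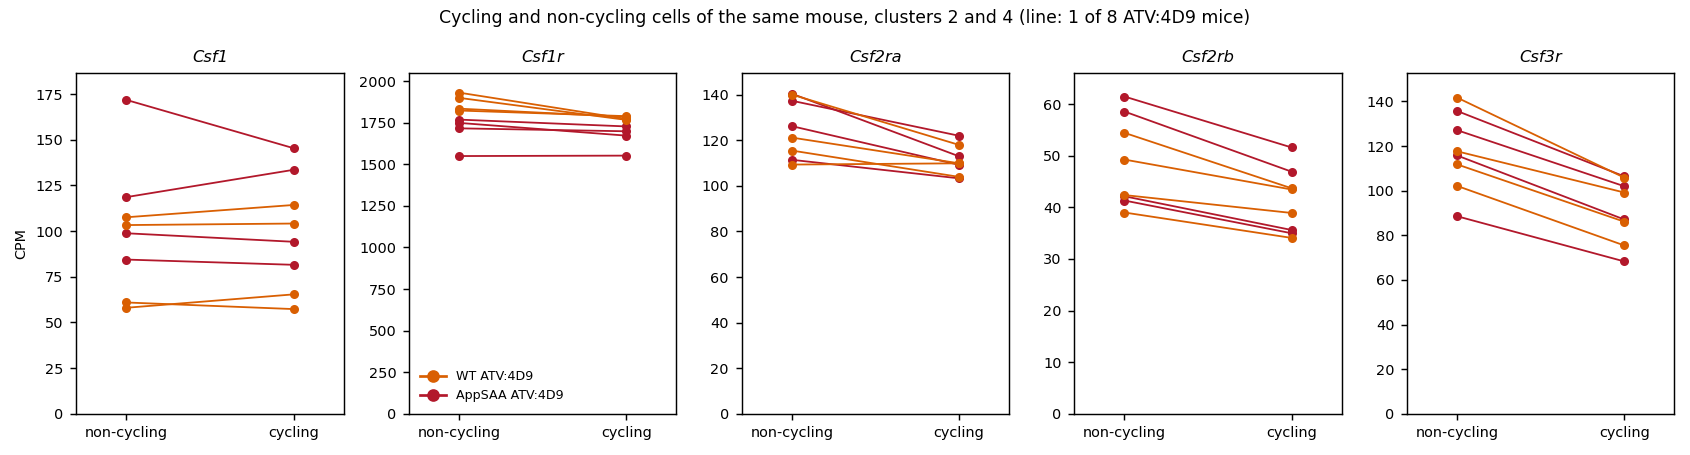
Level of each gene (vertical axis, CPM) in non-cycling and cycling cells of clusters 2 and 4, with 1 line for each of the 8 mice given ATV:4D9 and the genotype as the colour. Csf3r was lower in cycling cells in all 8 mice, and Csf1 was higher in 4 and lower in 4.

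The other genes of these pathways were taken as 5 lists. Their counts stand against 63.3% of all genes called for ATV:4D9 in WT mice (30.8% higher, 32.5% lower), 55.1% in AppSAA mice (27.9% higher, 27.1% lower) and 28.2% for AppSAA against WT mice given ATV:ISO (14.4% higher, 13.7% lower). Nothing particular to a list is read from them. These changes too are relative to TMM-scaled totals and not per cell. Of the 28 list genes called lower after ATV:4D9 in WT mice, 20 had more UMIs per cell than after ATV:ISO by the mean log2 ratio over the 4 pools, 18 of them in every pool. Of the 22 called lower in AppSAA mice, 9 did, 6 of them in every pool. All 14 called lower in AppSAA than WT mice given ATV:ISO were also lower per cell by that mean, 9 of them in every pool. Of the ligands and other receptors, 6 of 12 could be tested. Il34, Csf3, Il3, Il5, Il5ra and Kit were not. Il34, which encodes the other ligand of CSF1R, had 2 UMIs in all cells. Il3ra, the alpha chain of the IL-3 receptor, was higher in AppSAA than WT mice given ATV:ISO (2.01 ± 0.18, edgeR adjusted p = 6.76e-08) and lower after ATV:4D9 in AppSAA mice (-0.56 ± 0.17, adjusted p = 0.00726). After ATV:4D9 in WT mice it differed by 0.31 ± 0.19 (adjusted p = 0.155). The mean log2 ratios of Il3ra per cell in these comparisons were 2.22, -0.04 (higher in 2 of 4 pools) and 1.14 (higher in 4 of 4). Of the 6 tested, ATV:4D9 lowered 2 and raised 0 in each genotype.

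Among 22 receptor signalling genes, 3 rose and 9 fell after ATV:4D9 in WT mice (median -0.11, against -0.05 over all genes). Gab1, an adaptor downstream of receptor kinases, fell by 1.26 on the log2 scale. The kinase genes Syk (-0.93 ± 0.09) and Src (-0.93 ± 0.11) fell as well, while Fgr, another Src-family kinase, rose (1.24 ± 0.10). Per cell the mean log2 ratios were -0.42 for Gab1 and -0.08 for both Syk and Src, with Gab1 lower in 4 of 4 pools. In AppSAA mice 3 rose and 5 fell (median -0.00, against -0.03 over all genes), with Gab1 (-0.98 ± 0.16), the kinase Fyn (-0.60 ± 0.09) and Tyrobp (-0.50 ± 0.12) among those that fell, and per cell these had -0.51, -0.10 and 0.0026. AppSAA against WT mice given ATV:ISO had 3 higher, Fgr (1.81 ± 0.10), Fyn (1.11 ± 0.09) and Tyrobp (1.06 ± 0.12), and 7 lower.

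Among 15 tested genes that restrain or shed these receptors, 2 rose and 7 fell in WT mice (median -0.05) and 5 rose and 7 fell in AppSAA mice (median -0.23) after ATV:4D9. Dok3 and Dok1, adaptors that dampen receptor kinases, fell in both (Dok3 -1.21 ± 0.16 and -0.79 ± 0.16, Dok1 -0.79 ± 0.08 and -0.52 ± 0.08). So did Dusp6, a phosphatase of ERK (-0.91 ± 0.13 and -0.69 ± 0.13), and Cbl, a ubiquitin ligase for CSF1R (-0.83 ± 0.15 and -0.57 ± 0.15). Per cell, the mean log2 ratios in WT and AppSAA mice were -0.35 and -0.26 for Dok3, 0.06 and -0.01 for Dok1, -0.07 and -0.20 for Dusp6, and 0.02 and -0.08 for Cbl. Those that rose are named after their values were seen. In WT mice they were Dok2, the third of these adaptors and low in level (2.80 ± 0.29, 3.04 CPM on average over the 20 mice), and the phosphatase gene Ptpn6 (0.19 ± 0.07). In AppSAA mice they were Dok2 (1.40 ± 0.24), Socs1 (0.94 ± 0.25), Rhbdf2 (0.69 ± 0.14) and the protease genes Adam17 (0.31 ± 0.08) and Adam10 (0.17 ± 0.06). Each of these was also higher per cell in 4 of 4 pools. Dok3 was also lower in AppSAA than WT mice given ATV:ISO (-0.94 ± 0.16), where 2 of the 15 were higher and 4 lower.

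Of the 13 JAK-STAT genes and targets, 6 rose and 5 fell in WT mice (median 0.08) and 5 rose and 4 fell in AppSAA mice (median 0.07). Pim1, a kinase induced by STAT5, rose by 1.36 ± 0.19 and 1.58 ± 0.19, and Socs3, an inhibitor of JAK signalling, rose by 0.63 ± 0.17 and 1.00 ± 0.17. Stat5b fell (-0.87 ± 0.12 and -0.62 ± 0.12), and per cell it had -0.02 and -0.12. Bcl2a1b, an anti-apoptotic gene, was higher in AppSAA than WT mice given ATV:ISO (0.85 ± 0.08), where 3 of the 13 were higher and 1 lower.

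Of 8 transcription factors of the lineage, 0 rose and 5 fell in WT mice after ATV:4D9 (median -0.44), and 1 rose and 4 fell in AppSAA mice (median -0.21). Cebpa, a myeloid factor, fell by 1.41 ± 0.09 and 0.98 ± 0.08 on the log2 scale. Mef2c, a factor of mature microglia, fell too (-0.45 ± 0.06 and -0.44 ± 0.06). Irf8, a factor that microglia need for their development, also fell (-0.47 ± 0.07 and -0.31 ± 0.07), and Cebpb was higher in AppSAA mice (0.47 ± 0.13). Per cell, Cebpa was lower in 4 of 4 pools of both genotypes (-0.57 and -0.49), while Irf8 (0.38 and 0.19) and Mef2c (0.39 and 0.06) were higher by the mean log2 ratio. In AppSAA against WT mice given ATV:ISO, 1 was higher (Ets2, 0.38 ± 0.13) and 1 lower (Runx1, -0.24 ± 0.08, but higher per cell in 3 of 4 pools).

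Over the 20 mice, and among 8027 genes, each gene's nearest patterns were named by Pearson's r of log2 CPM, as a description. The 20 mice share 4 pools and 5 groups, so r also reflects the group levels. It is given again after the group means were removed. Csf1 was most like Rpl23a, Etl4 and Sulf2 (r = 0.982, 0.982 and 0.981, and 0.836, 0.874 and 0.867 within groups). Csf1r was most like Phyhd1, Lrch4 and Tnfrsf21 (0.985, 0.984 and 0.984), and Csf2ra was most like S100a1, Gyg and Ifitm2 (0.965, 0.961 and 0.960), with 0.581, 0.565 and 0.693 within groups. Csf2rb was most like Sema4d, Gna13 and Brd2 (0.929, 0.927 and 0.926, and 0.895, 0.924 and 0.909 within groups). Csf3r was most like Padi2, Irf8 and Dyrk2 (0.989, 0.985 and 0.983), and kept r values of 0.961, 0.952 and 0.959 with them after the group means were removed, while those of Csf1r were 0.732, 0.801 and 0.851.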

How the data were processed

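The deposited matrix holds UMI counts per gene and cell, without normalization. Per the study's methods, the authors labelled cells of each mouse with CellPlex oligos, ran Cell Ranger (6.1.1 per the labels) against mm10 and clustered the cells in Seurat. The deposited percent of mitochondrial UMIs per cell was also computed by the authors. The deposited annotation gives each cell's mouse, group, pool and cluster. It matched the matrix in all 74758 cells, and every cell was kept (7141 had over 25000 UMIs, 9.55%). No doublet caller was run.

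Sums of counts were formed for each mouse and for each cluster of a mouse with at least 20 cells (2193 to 6126 cells and 17150296 to 102446549 UMIs for each mouse). CPM and UMIs per cell were computed from these sums. Groups were compared in R 4.3.3 by the quasi-likelihood test of edgeR 4.0.16, after filterByExpr and TMM scaling, with all 5 groups in 1 fit and Benjamini-Hochberg adjustment over all genes tested. UMIs per cell were compared by exact permutation in scipy 1.17.1 and, chosen after seeing the data, by edgeR with the number of cells as the library size and the pool as a block. Where the study used limma/voom, limma 3.58.1 served as an alternative, as did DESeq2 1.42.0. The first script was tested on simulated data. Alternatives were other scaling, filters and tools, the pool as a block, and leaving out each mouse.

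Mice of the same pool were labelled as 1 batch and shared a library. Deviations from the group means correlated in all 40 of 40 pairs of mice within a pool (0.266 to 0.830), and the pool was taken to pair them. The main fits of the groups did not include the pool, and fits with it as a block are given as an alternative. Differences between pools therefore stayed in the SEs and p-values of the main fits. A gene not called there can be called with the block. For AppSAA against WT mice given ATV:4D9, 11.8% of all genes were called without the block and 31.4% with it. Each mouse was a separate animal.

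The genes named are the 5 members in every comparison, up to 4 called genes of each list with the largest change and a mean CPM of at least 10, and the 3 genes most alike to each member. A few genes that this rule names are not reported here. The members were taken by symbol, with no measured value in the rule, but the members, lists and tests were chosen with earlier results of these data known.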

Additional observations from a re-analysis of the deposited data

Results flagged for a closer look

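The AppSAA mouse given ATV:4D9 in pool 4 had 112 CPM of Csf2ra and stood apart from the other 3 mice of its group, the nearest of which had 127 CPM. Its gap was 0.842 of the group's range, over Dixon's 95% limit for 4 values. This was 1 of 50 such tests, made on the same 5 groups of 4 mice over genes and scales and so not independent, and chance sets apart about 1 in 20 groups.

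The effect of ATV:4D9 differed between AppSAA and WT mice for 3 genes by the interaction in edgeR's quasi-likelihood test. The difference was -1.82 on the log2 scale for Csf1 (adjusted p = 0.000489), -0.48 for Csf2ra (adjusted p = 0.0305) and 0.32 for Csf1r (adjusted p = 0.0444). Of 16 fits that each left out 1 mouse, all kept the call for Csf1, 9 kept it for Csf2ra and 3 for Csf1r. On UMIs per cell the Csf1r difference was -0.02 (exact permutation p = 0.686). The groups also differed in the share of cells in cluster 4, 36.3% to 45.7% in WT and 18.4% to 25.3% in AppSAA mice given ATV:4D9, and the part of this in the 3 differences was not tested.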

How the results depend on the processing

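Over all cells, leaving out 1 mouse at a time gave 360 values of 40 results. Of these, 315 kept their direction and their side of the threshold, 21 lost the call, 5 gained it and 19 that were not called changed sign, while no called value did. Of 350 values under other settings, 289 kept both, 17 lost the call, 16 gained it, 13 that were not called changed sign and 15 reversed with a call on either side. Within clusters, where UMIs per cell were not among the settings, no called value changed sign, but 56 of 715 values without 1 mouse and 11 of 420 under other settings did so without a call. Of the calls there, only that of Csf1r in cluster 5 had mean UMIs per cell in the other direction.

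The scale mattered most. The share of all genes that passed the exact permutation test was not computed, so the counts of passing genes have no background to stand against. On UMIs per cell the log2 ratios for ATV:4D9 against ATV:ISO in WT mice were 0.26 for Csf1r, 0.46 for Csf2rb and -0.072 for Csf3r, and 2 of the 5 genes passed. In AppSAA mice they were 0.25 for Csf1r, -0.21 for Csf1, 0.47 for Csf2ra, 0.52 for Csf2rb and -0.13 for Csf3r, and 1 gene passed. Against 4D9 they were 0.21 for Csf1r, -0.28 for Csf1, 0.37 for Csf2ra, 0.52 for Csf2rb and -0.19 for Csf3r, and 1 gene passed. AppSAA against WT mice gave -0.042 for Csf1r after ATV:ISO and 0.74 for Csf1 after ATV:4D9, where 0 genes passed, and the interaction of Csf1r was -0.018. With UMIs per cell and the pool as a replicate block, chosen after seeing the data, the values were 0.26 for Csf1r, 0.46 for Csf2rb and -0.073 for Csf3r in WT mice, 0.25 for Csf1r, -0.20 for Csf1, 0.47 for Csf2ra and 0.53 for Csf2rb in AppSAA mice, and 0.21 for Csf1r, 0.38 for Csf2ra and 0.52 for Csf2rb against 4D9 (5 genes called). AppSAA against WT mice gave -0.042 for Csf1r and 0.27 for Csf3r after ATV:ISO, and 0.21 for both Csf2rb and Csf3r after ATV:4D9 (3 genes called), and the interaction of Csf1r was -0.018.

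The interaction of Csf1r lost its call with RLE size factors (0.28), without a filter on low counts (0.27), without cells over 25000 UMIs (0.29) and in a fit of only the groups compared (0.32), which also took the call from Csf1r in AppSAA against WT mice given ATV:ISO (-0.25). The Csf2ra interaction was -0.41 without cells over 25000 UMIs, which left 1 gene called (1123 of 13671 over all genes). With the pool as a replicate block, 5 genes were called (Csf2rb 0.41, Csf3r 0.29), and on UMIs per cell with the block these 2 had 0.068 and -0.061 and were not called. Leaving out 1 mouse gave 1 to 3 of the 5 genes called (969 of 14262 to 1861 of 14111 over all genes), 0.28 to 0.37 for Csf1r, -0.56 to -0.41 for Csf2ra and 0.33 to 0.51 for Csf2rb. The count was 1 without the mouse of WT ATV:ISO in pool 2 or 3, of AppSAA ATV:ISO in pool 2, or of AppSAA ATV:4D9 in pool 3.

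For AppSAA against WT mice given ATV:4D9, 4 genes were called with the replicate block (Csf2ra 0.28, Csf2rb 0.32, Csf3r 0.32) and 4 without cells over 25000 UMIs (Csf2ra 0.32, Csf2rb 0.37, Csf3r 0.38, with 2072 of 13671 over all genes), and 2 by DESeq2 (Csf2rb 0.32, with 2042 of 14058 over all genes). Leaving out 1 mouse gave 0 to 2 genes called (1103 of 14240 to 1719 of 14111 over all genes). These fits gave 0.69 to 0.99 for Csf1, 0.21 to 0.36 for Csf2ra, 0.24 to 0.42 for Csf2rb and 0.24 to 0.42 for Csf3r. The count was 2 without WT ATV:4D9 pool 1 or without AppSAA ATV:4D9 pool 1, 2 or 4, and 0 without AppSAA ATV:4D9 pool 3. With TMM scaling the block changed no other call over all cells.

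Within clusters, Csf1 of AppSAA against WT mice in cluster 1 was 0.81 by limma-voom (not called) and 0.72 to 0.92 without 1 mouse. Csf1r in cluster 5 was -0.25 with at least 50 cells a mouse, -0.20 without a filter on low counts and -0.27 to -0.24 without 1 mouse. In cluster 4 the ranges without 1 mouse were -0.80 to -0.61 for Csf1, -0.48 to -0.33 for Csf2ra and -0.54 to -0.36 for Csf3r. Between cycling and other cells, Csf1 was 0.12 in cluster 2 alone, -0.083 with S genes only and -0.18 with the 95th percentile as threshold, each past the test, and Csf1r was -0.11 and not called with no replicate block for the mouse. Mean cycling shares by threshold were 1.00%, 74.6%, 2.08%, 2.47% and 49.5% for WT ATV:ISO, WT ATV:4D9, AppSAA ATV:ISO, AppSAA 4D9 and AppSAA ATV:4D9. Over the finer clusters the highest median was 2.67 times the lowest for Csf1r, 18.3 for Csf1, 2.5 for Csf2ra, 3.28 for Csf2rb and 2.97 for Csf3r. Apart from the scale, whose part follows from its construction, the cause of these changes was not tested.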

Other observations

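Csf2, which encodes GM-CSF, the ligand of the receptor formed by Csf2ra and Csf2rb, was close to absent from these cells. It had 133 UMIs in all, in 20 cells of 5 mice, all of them AppSAA mice, and 41 of the UMIs came from 1 cell that also held a T or NK cell marker UMI. The summed Csf2 UMIs were 96 in AppSAA mice given ATV:4D9, 28 after ATV:ISO, 9 after 4D9, and 0 in both groups of WT mice.

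At the finer resolution of the deposited annotation, with 9 clusters, Csf1 and Csf1r were again at opposite ends in CPM. Finer cluster 6, with 3101 cells and 12 mice of at least 20 cells, had the highest Csf1 median of the 9 (480 CPM) and the lowest Csf1r median (1115 CPM). Those 12 mice were all AppSAA mice, while the other medians include WT mice. Finer cluster 0, with 16671 cells, had the lowest Csf1 median (26.2 CPM) and the highest Csf1r median (2982 CPM) over the mice of all groups. Per cell, the Csf1r medians of finer clusters 6 and 0 were close, at 21.5 and 21.7 UMIs. The lowest Csf1r median per cell was in finer cluster 8 (11.8 UMIs). Over the mice of all groups, finer cluster 8 had the lowest median of the 9 for Csf2ra (90.9 CPM), Csf2rb (19.0 CPM) and Csf3r (68.8 CPM), and the second lowest for Csf1r (1185 CPM) and Csf1 (34.8 CPM). This order did not hold in every group. In AppSAA mice given ATV:ISO its mean Csf2ra (99.7 CPM) was above that of finer cluster 0 (92.2) and finer cluster 2 (97.2). After ATV:4D9 its mean Csf1 was below that of finer cluster 0, at 30.7 against 38.1 CPM in AppSAA and 22.3 against 23.2 CPM in WT mice.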
